A study of Mus musculus with 6 samples.

Results

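The genes described here encode the subunits of the proteasome, the barrel-shaped protease that degrades ubiquitin-tagged proteins. Members were taken by gene symbol from the platform annotation, as Psma, Psmb, Psmc or Psmd followed by a number, which gave 36 of the 19057 genes named on the array. Of these, 17 encode the core particle (Psma and Psmb) and 19 the regulatory particle (Psmc and Psmd), and 3 symbols of the same pattern were not analysed here. The study gives the source of the RNA as primary myoblasts, the cultured precursor cells that grow out from muscle satellite cells. It was hybridized to 6 Illumina mouse whole genome bead arrays, 1 RNA sample per array. There were 3 arrays of Rev-/- myoblasts, from global Rev-erbα-null mice made with a targeted embryonic stem cell clone, and 3 arrays of WT myoblasts, from mice of the same breeding.

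Per the labels, all donors were C57BL/6 males of 6 weeks, while the methods of the study give a younger age for myoblast isolation. Both groups were cultured alike, in F-10 medium with 20% serum and 5 ng/ml bFGF on collagen, without differentiation medium. Per the methods of the study, primary myoblasts were pre-plated to deplete fibroblasts and expanded over several passages. The deletion was global, so it was not restricted to the muscle lineage of the Rev-/- mice.

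Several features of the arrays bear on every value that follows. Nr1d1, which encodes Rev-erbα and is the targeted gene, gave a log2 intensity of 7.01 on Rev-/- 1, 6.51 on Rev-/- 2 and 7.14 on Rev-/- 3, against 6.60 on WT 1, 6.54 on WT 2 and 7.21 on WT 3. Its 1 probe exceeded background on Rev-/- 1, Rev-/- 3 and WT 3 only, so its signal did not separate the labels. Whether this probe falls inside the deleted sequence is not known here, and a probe outside it would check nothing. Directions below are therefore those between arrays as labelled. Xist, which coats the silenced X chromosome of female cells, exceeded background on 5 arrays, at 9.72 to 10.75, but not on Rev-/- 1, at 6.62. The Y-linked gene Eif2s3y exceeded it on all 6, at 6.82 to 9.08 on the Rev-/- arrays and 6.72 to 8.56 on the WT arrays. It was highest on Rev-/- 1 and barely above background on Rev-/- 3, at 6.82, and WT 1, at 6.72. The labels give males for all, yet Xist was above background on 5 arrays, and the arrays differed in sex-linked RNA. The cause was not tested. Pax7 and Myf5, which mark satellite cells and early myoblasts, were not above background on any array, whereas Myod1 ran from 7.84 to 7.91 on the Rev-/- arrays and from 7.95 to 8.07 on the WT arrays, and the myosin heavy chain Myh8 of differentiated muscle reached 14.51 to 14.67 on the Rev-/- arrays and 14.48 to 14.61 on the WT arrays. Ckm, also of differentiated muscle, had 13.87 to 14.12 on the Rev-/- arrays and 14.07 to 14.10 on the WT arrays. The haemoglobin gene Hba-a1 had 14.43 to 14.53 on the Rev-/- arrays and 14.21 to 14.60 on the WT arrays. The fibroblast marker Dcn had 13.08 to 13.23 on the Rev-/- arrays and 13.09 to 13.26 on the WT arrays. The endothelial marker Pecam1 had 9.31 to 9.79 on the Rev-/- arrays and 9.27 to 9.55 on the WT arrays. All 5 fibroblast and all 5 endothelial markers on the array were measured. These are markers of differentiated muscle, blood, fibroblasts and endothelium, whereas the study describes growing myoblasts depleted of fibroblasts. The source of the signals was not tested. Rev-/- 1 was the array least like the rest, correlating at a mean of 0.978 with them, while the other 5 arrays had 0.988 to 0.99.

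In the proteasome, the core particle is a stack of rings, with outer rings of alpha subunits that gate the channel and inner rings of beta subunits, of which some carry the proteolytic sites. The regulatory particle caps the core. Its base holds a ring of ATPases that unfold the substrate and thread it into the core, and its lid removes the ubiquitin chain. Subunits are built in fixed proportion, and when the protease is inhibited mammalian cells raise transcription of most subunit genes together through Nfe2l1, which binds antioxidant response elements. In muscle the proteasome removes myofibrillar proteins during atrophy and regulatory proteins during myogenic differentiation. Bulk RNA cannot tell fewer cells of a type from less RNA per cell.

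Promoter sequence was available for 30 of the 36 members, in RefSeq windows of mouse build GRCm38.p6 from 250 bases before to 50 after the transcript start. Each motif was sought on both strands. The core of the antioxidant response element, TGACNNNGC, occurred in 5 of the 30 member genes (16.7%) and in 14% of all 27025 genes with a window. The CCAAT box occurred in 12 (40%) and in 41.1% of all genes. AGGTCA, the core of the element that Rev-erbα binds as a monomer next to an A/T-rich stretch, occurred in 9 (30%) and in 18.1% of all genes, namely in Psma3, Psma6, Psma7, Psmb10, Psmc2, Psmc4, Psmc5, Psmd2 and Psmd6. On the opposite strand AGGTCA reads TGACCT and can overlap the antioxidant core, and 0 matches did so among the members. A match describes letters in the window and is not a binding site. The A/T-rich stretch next to AGGTCA was not searched for, so its counts are of the core letters alone. Of these windows, 100 bases each are shown for 4 members to which the results return. Psmb5 and Psmb6 encode proteolytic subunits and carry TGACNNNGC close to the start, Psmb10 encodes a proteolytic subunit with AGGTCA, and Psmd2 is the tested member whose arrays did not overlap between labels. Capitals mark the motif, sequences run in the direction of the gene, and positions count back from −1, the base before the start. The stretches of Psmb5 (chr14:54617996-54618095, minus strand, motif at −47 to −39), Psmb6 (chr11:70525257-70525356, plus strand, −9 to −1) and Psmb10 (chr8:105938393-105938492, minus strand, −42 to −37) run from −100 to −1, and that of Psmd2 (chr16:20651402-20651501, plus strand, motif at −214 to −209) from −250 to −151.
Psmb5: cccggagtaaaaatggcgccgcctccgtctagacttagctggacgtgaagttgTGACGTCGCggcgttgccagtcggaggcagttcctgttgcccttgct
Psmb6: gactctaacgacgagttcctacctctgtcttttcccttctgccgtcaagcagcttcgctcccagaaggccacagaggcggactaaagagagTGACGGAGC
Psmb10: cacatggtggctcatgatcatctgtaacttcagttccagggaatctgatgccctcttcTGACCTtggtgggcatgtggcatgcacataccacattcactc
Psmd2: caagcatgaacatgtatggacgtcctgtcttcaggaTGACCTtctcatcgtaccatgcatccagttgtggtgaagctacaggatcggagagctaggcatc
In Psmb10 and Psmd2 the capitals read TGACCT, so AGGTCA lies on the opposite strand there. No window was at hand for Psma8, Psmb1, Psmb2, Psmb7, Psmc3 and Psmd7.

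Signal was first set against the background. Of the 36 members, 31 exceeded background on at least 3 arrays and were tested, 12 of the core and all 19 of the regulatory particle. The 5 others were the alpha ring genes Psma1, Psma3 and Psma6, each with 1 probe that was not above background on any array, the testis subunit gene Psma8, above it on 2 arrays, and the thymus subunit gene Psmb11, above it on none. At these levels the labels did not overlap in Psma3, at 6.58 to 6.62 on the Rev-/- arrays and 6.52 to 6.56 on the WT arrays, or in Psma8, at 6.65 to 6.79 on the Rev-/- arrays and 6.61 to 6.65 on the WT arrays, and no fold is given. Psma1, Psma3 and Psma6 encode constitutive subunits, and no level is given for them. Values are log2 of quantile-normalized intensity from the brightest probe of each gene, and they are compared between arrays, not between genes.

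With limma, 0 of the 31 members were called different between the labels, where a call needed a 1.5-fold difference and an adjusted p no higher than 0.05, and the same held for all 12043 genes tested (0%). The adjusted p was at least 0.997 for every member. With quantile normalization the largest difference was 1.32-fold, and 27 of the 31 members lay within 1.1-fold. Of the 31 log2 fold changes, Rev-/- minus WT, 20 lay below 0 and 11 above, with 52.1% below 0 among all genes, and the split depended on a single array, on array weights and on the scaling, with 11 below 0 when Rev-/- 1 was left out, 14 with array weights over all 6 arrays and 30 when array medians were aligned in place of quantile normalization (79.7% of all genes then). At an unadjusted p of at most 0.05, 2 members were lower, Psmb1 and Psmd2, where 1.98% of all genes were, and 0 were higher, where 1.25% were. Among the 31, the arrays of the labels did not overlap for 1 member, Psmd2, which was lower (4.65% of all genes), and for 0 members that were higher (3.56% of all genes). With quantile normalization, the 95% interval of the difference stayed within 1.5-fold for 29 members, all but Psmb1 and Psmb5. This depended on the scaling. With array medians aligned, the log2 fold change was −0.63 for Psmb1, past 1.5-fold, and −0.53 for Psmd13, where the median of all genes was −0.10. Their adjusted p with limma was then 0.204 and 0.189. With 3 arrays against 3, an exact permutation test, 2-sided, cannot give a p below 0.1.

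**Figure D1:**
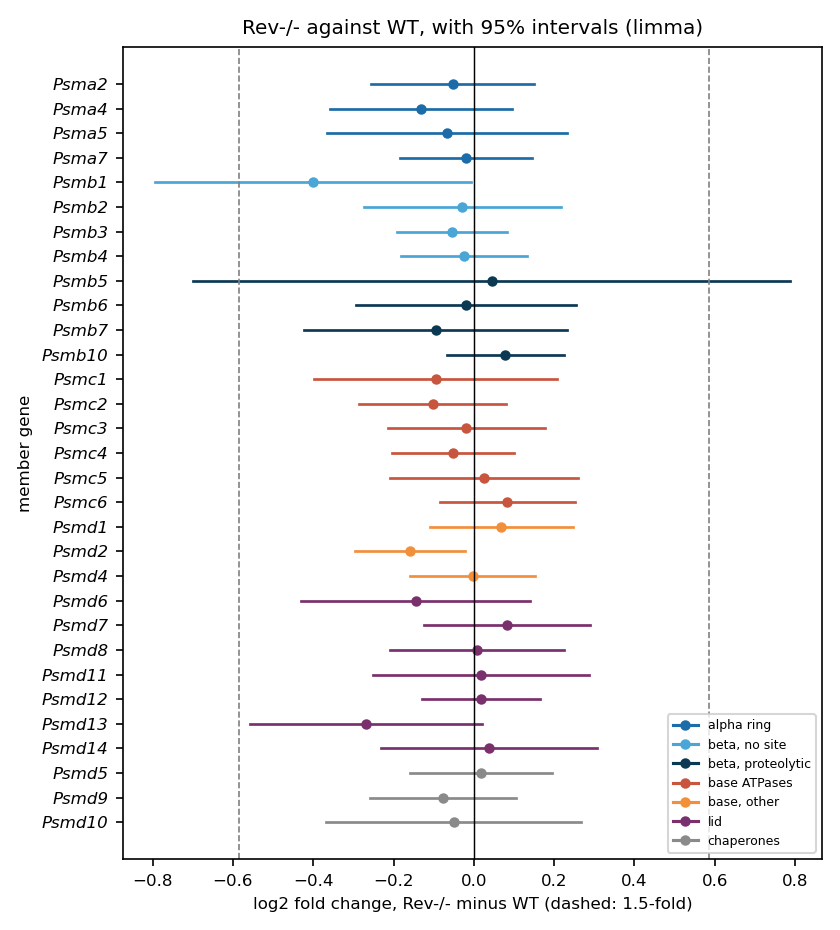
Log2 fold change, Rev-/- minus WT, of the 31 tested proteasome subunit genes (points) with 95% intervals from limma (lines), n = 3 arrays per label, coloured by role. The intervals of Psmb1 and Psmb5 pass the dashed lines at 1.5-fold, and the other 29 stay between them.

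The alpha ring forms the gate of the core, and its 4 tested genes all lay below 0, from −0.13 to −0.019, with 0 at an unadjusted p of at most 0.05. Psma4 had 11.42, 11.59 and 11.62 on the Rev-/- arrays, against 11.85, 11.63 and 11.55 on the WT arrays, a log2 fold change of −0.13 (SE 0.096). Psma5 had 12.08, 12.48 and 12.58 on the Rev-/- arrays, against 12.41, 12.44 and 12.48 on the WT arrays (−0.066, SE 0.13). Psma2 had 12.19, 12.38 and 12.47 on the Rev-/- arrays, against 12.38, 12.33 and 12.48 on the WT arrays (−0.053, SE 0.087). In all 3 genes array Rev-/- 1 was the lowest of the 6, and the remaining Rev-/- arrays lay among the WT arrays, except Rev-/- 3 in Psma5, which lay above them. Without Rev-/- 1 the difference was −0.073 for Psma4, 0.085 for Psma5 and 0.025 for Psma2, and without WT 1 that of Psma4 was −0.045.

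The beta ring genes without a proteolytic site, Psmb1 to Psmb4, also lay below 0 in all 4 cases, from −0.40 to −0.025. Psmb1 encodes a structural beta subunit and had the largest difference of all members. It had 9.14, 9.68 and 9.60 on the Rev-/- arrays, against 9.97, 9.62 and 10.04 on the WT arrays, a log2 fold change of −0.40 (SE 0.17, limma unadjusted p = 0.0466, adjusted p = 0.997). Its exact permutation p was 0.2, 2-sided, since WT 2 lay below Rev-/- 2. Without Rev-/- 1 the log2 fold change was −0.24 (SE 0.13, limma unadjusted p = 0.107). Psmb3 had 11.53, 11.57 and 11.52 on the Rev-/- arrays, against 11.57, 11.66 and 11.56 on the WT arrays (−0.055, SE 0.058). Psmb4 had 12.77, 12.60 and 12.74 on the Rev-/- arrays, against 12.70, 12.76 and 12.72 on the WT arrays (−0.025, SE 0.067). These last 2 genes were among the steadiest members, with all 6 arrays of Psmb3 within 0.14 and those of Psmb4 within 0.17.

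The proteolytic beta subunits cut the substrate, with Psmb5 supplying the chymotrypsin-like site, Psmb6 the caspase-like site and Psmb7 the trypsin-like site. Psmb10 encodes the immunoproteasome subunit that replaces Psmb7 in leukocytes and in cells exposed to interferon. Their 4 log2 fold changes split evenly, 2 above and 2 below 0. Psmb5 varied more than any other member. It had 7.75, 8.96 and 8.39 on the Rev-/- arrays, against 7.95, 8.28 and 8.74 on the WT arrays (log2 fold change 0.044, SE 0.32). Its range of 1.21 over the 6 arrays ran from Rev-/- 1 to Rev-/- 2, with the WT arrays inside it. Leaving out Rev-/- 1 gave 0.35 (SE 0.25) and leaving out Rev-/- 2 gave −0.25. Psmb6 had 11.76, 12.06 and 12.11 on the Rev-/- arrays, against 12.12, 12.05 and 11.83 on the WT arrays (−0.019, SE 0.12). Psmb7 had 11.64, 11.91 and 11.93 on the Rev-/- arrays, against 12.21, 11.78 and 11.78 on the WT arrays (−0.095, SE 0.14). In Psmb6 and Psmb7 the highest array was WT 1 and the lowest Rev-/- 1, with the rest mixed. Psmb5 and Psmb6, whose promoter stretches above share TGACNNNGC, had different orders of the arrays, with Rev-/- 1 lowest in both.

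Psmb10 had 9.06, 8.92 and 9.06 on the Rev-/- arrays, against 8.93, 8.93 and 8.95 on the WT arrays (log2 fold change 0.078, SE 0.062). Its WT arrays lay within a narrow band, and Rev-/- 1 and Rev-/- 3 lay above it. Leukocyte markers had the same arrays high among the Rev-/- arrays, with a list score, the median deviation of its genes from their own means, of 0.93 on Rev-/- 1, −0.94 on Rev-/- 2 and 0.37 on Rev-/- 3, against −0.92 on WT 1, −0.18 on WT 2 and 0.17 on WT 3. Of the 7 leukocyte markers on the array 5 were measured, with summed intensities of 976 to 13000 on the Rev-/- arrays and 907 to 2910 on the WT arrays, and the defining markers Ptprc and Itgam were not above background on any array. Interferon-induced genes, of which 3 of 5 were measured, summed to 732 to 953 on the Rev-/- arrays and 779 to 896 on the WT arrays. The part of these cells in the Psmb10 values was not tested.

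**Figure D2:**
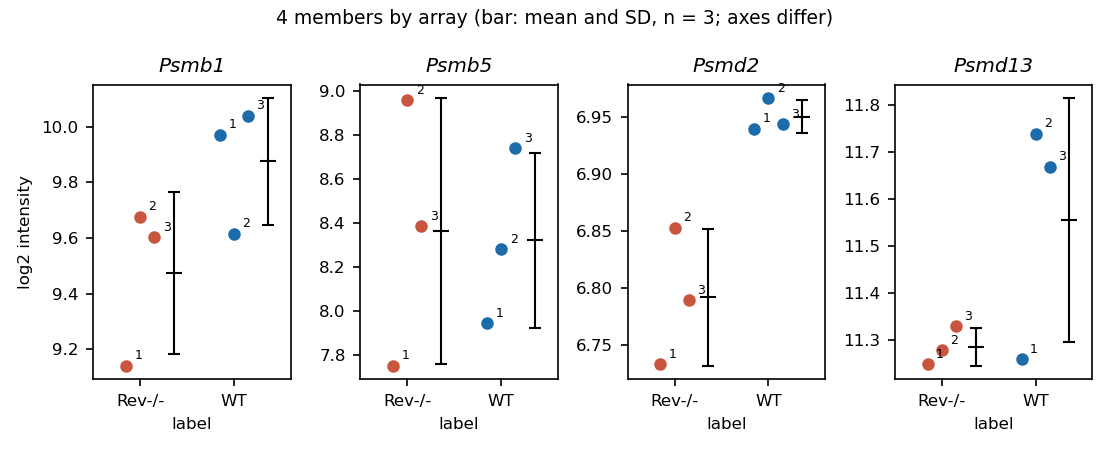
Log2 intensity of Psmb1, Psmb5, Psmd2 and Psmd13 on each array (points, numbered by replicate), Rev-/- left and WT right, with the mean and SD of 3 arrays beside them. Only in Psmd2, of these 4 genes, do the Rev-/- arrays (6.73 to 6.85) lie entirely below the WT arrays (6.94 to 6.97), and the axes differ between panels.

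The base of the regulatory particle holds 6 ATPases, Psmc1 to Psmc6, of which 4 lay below 0 and 2 above, from −0.10 to 0.083. Psmc2 had 11.97, 12.08 and 12.19 on the Rev-/- arrays, against 12.10, 12.26 and 12.18 on the WT arrays (−0.10, SE 0.078). Psmc4 had 11.15, 11.33 and 11.19 on the Rev-/- arrays, against 11.26, 11.30 and 11.28 on the WT arrays (−0.052, SE 0.065). The WT arrays of Psmc4 lay inside the span of its Rev-/- arrays. Psmc6 was dim, above background on 4 arrays only, with 6.72, 6.85 and 6.81 on the Rev-/- arrays, against 6.64, 6.67 and 6.81 on the WT arrays (0.083, SE 0.072). In 5 of the 6 ATPase genes, all but Psmc6, array Rev-/- 1 was the lowest.

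Psmd1 and Psmd2 encode the large scaffold subunits of the base, and Psmd4 encodes a ubiquitin receptor. Psmd2 had 6.73, 6.85 and 6.79 on the Rev-/- arrays, against 6.94, 6.97 and 6.94 on the WT arrays, and was the only one of the 31 tested members whose labels did not overlap. Its log2 fold change was −0.16 (SE 0.058, limma unadjusted p = 0.0286, adjusted p = 0.997, exact permutation p = 0.1, 2-sided, the smallest possible). This probe was dim, since the background limit of the arrays was 6.64 to 6.75. A second Psmd2 probe, above background on 3 arrays, had 6.73, 6.62 and 6.71 on the Rev-/- arrays, against 6.73, 6.58 and 6.73 on the WT arrays, a log2 fold change of 0.0047 (SE 0.068). The second probe lay near the background limit, so it cannot decide whether Psmd2 was lower. Psmd1 had 12.10, 12.12 and 11.90 on the Rev-/- arrays, against 12.03, 11.94 and 11.94 on the WT arrays (0.068, SE 0.076), and its 2 other probes gave −0.21 (SE 0.11) and −0.098 (SE 0.092). Psmd4 had 12.53, 12.45 and 12.51 on the Rev-/- arrays, against 12.47, 12.60 and 12.44 on the WT arrays (−0.0027, SE 0.066).

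The lid carries the deubiquitinating enzyme, encoded by Psmd14, and its 7 genes had 2 log2 fold changes below 0 and 5 above, from −0.27 to 0.083. Psmd13, a structural lid subunit, had 11.25, 11.28 and 11.33 on the Rev-/- arrays, against 11.26, 11.74 and 11.67 on the WT arrays (−0.27, SE 0.12, limma unadjusted p = 0.0641, exact permutation p = 0.3, 2-sided). Its Rev-/- arrays were close together, and WT 1 lay among them while WT 2 and WT 3 lay above. Leaving out WT 1 gave −0.42 (limma unadjusted p = 0.000832, adjusted p = 0.999), and leaving out WT 2 gave −0.18 (limma unadjusted p = 0.206). Psmd6 had 6.999, 7.405 and 7.377 on the Rev-/- arrays, against 7.538, 7.335 and 7.341 on the WT arrays (−0.14, SE 0.12). Without Rev-/- 1 the difference in Psmd6 was −0.014 (SE 0.084). Psmd7, the partner of Psmd14, had 11.32, 11.41 and 11.52 on the Rev-/- arrays, against 11.20, 11.46 and 11.34 on the WT arrays (0.083, SE 0.088).

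Psmd5, Psmd9 and Psmd10 encode chaperones that assemble the base and leave the finished particle. Psmd9 had 7.07, 7.17 and 7.20 on the Rev-/- arrays, against 7.30, 7.28 and 7.09 on the WT arrays (−0.076, SE 0.077). Psmd10, also known as gankyrin, had 9.21, 9.65 and 9.53 on the Rev-/- arrays, against 9.71, 9.38 and 9.45 on the WT arrays (−0.050, SE 0.14). Psmd5 had 7.45, 7.56 and 7.43 on the Rev-/- arrays, against 7.55, 7.50 and 7.34 on the WT arrays (0.018, SE 0.075). In all 3 the labels overlapped. The members not given singly, Psma7, Psmb2, Psmc1, Psmc3, Psmc5, Psmd8, Psmd11, Psmd12 and Psmd14, overlapped between labels as well.

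Core and regulatory particle were next compared by label. The median log2 fold change was −0.041 over the 12 core genes, of which 10 lay below 0, and −0.0027 over the 19 regulatory genes, of which 10 lay below 0. It was −0.025 over all 31 members and −0.0046 over all genes tested. The medians of core and regulatory particle differed by −0.038. That difference was not tested, and it was −0.007 with the mean of a gene's probes and ran from −0.044 without Rev-/- 3 to −0.016 without WT 3 when each array was left out. Without the 3 assembly chaperones the regulatory median was 0.0021. When Rev-/- 1 was left out, the medians were 0.016 for the core and 0.034 for the regulatory particle, both above 0, and with array weights they were −0.0039 and 0.015. Where array medians were aligned instead of whole distributions, the median of all genes moved to −0.10 and that of the members to −0.26, or −0.16 relative to all genes. With that scaling the shift grew with brightness, to −0.25 over the 3011 brightest genes, to which 24 members belong, and those 24 members had a median of −0.28. At an unadjusted p of at most 0.05 with limma, 14 of the 31 members were then lower, where 18.8% of all genes and 43.9% of the 3011 brightest were, and 13 of the 24 bright members were among them.

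A feature that was singled out after the values were seen was a low level of most members on array Rev-/- 1. On that array 21 of the 31 members had their lowest value, or 67.7%, where 24.6% of all genes did, and 27 (87.1%) lay below their own mean of the 6 arrays, where 53% of all genes did. The lowest array was Rev-/- 1 in 8 of 12 core genes and in 13 of 19 regulatory genes. The score of the members, the median of their deviations, was −0.16 on Rev-/- 1, 0.039 on Rev-/- 2 and 0.042 on Rev-/- 3, against 0.025 on WT 1, 0.0026 on WT 2 and −0.0091 on WT 3. On Rev-/- 1 it was −0.20 for the core and −0.14 for the regulatory particle, and −0.0086 for all genes. Of the role groups, 6 had their lowest score on Rev-/- 1, from −0.23 in the proteolytic beta subunits to −0.12 in the chaperones, and only the base scaffold and receptor group did not, at 0.035.

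**Figure D3:**
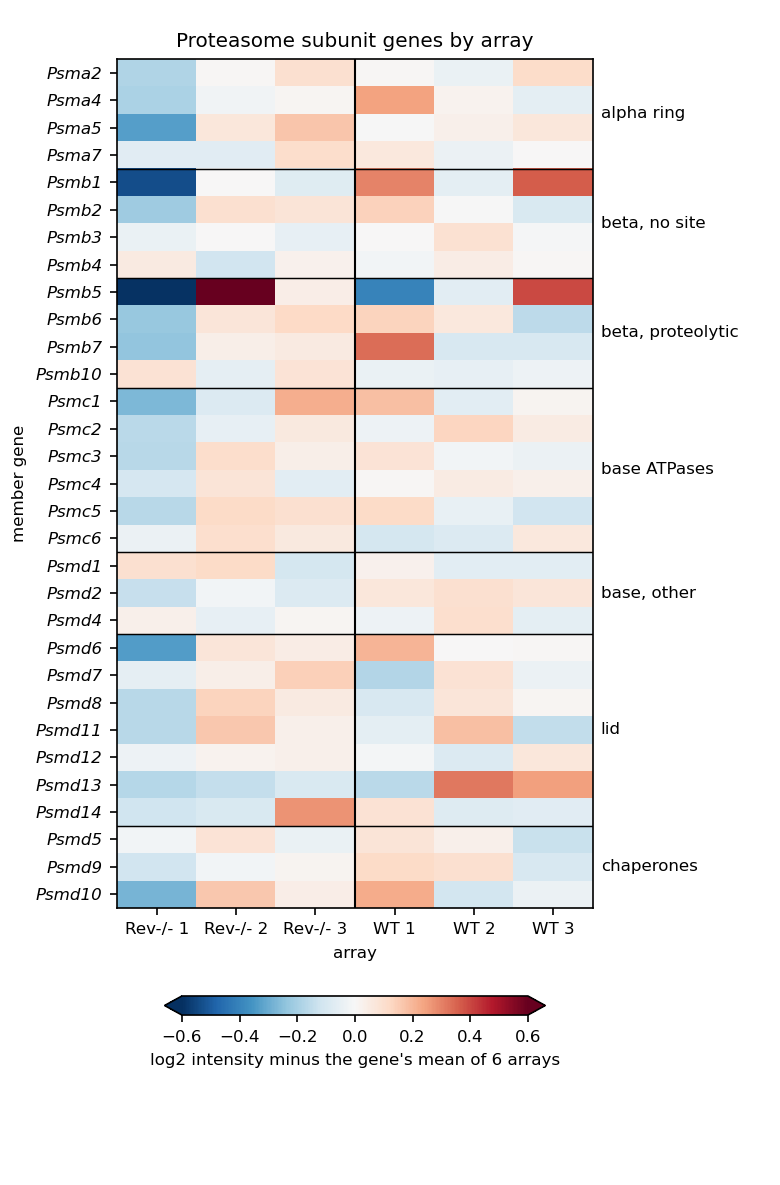
Deviation of the log2 intensity of each tested member from its own mean of the 6 arrays (colour, blue below and red above), with genes down the page by role and arrays across, Rev-/- left and WT right. The column of Rev-/- 1 is blue in 27 of 31 genes, and Psmb5 passes the end of the colour scale on Rev-/- 2.

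The members that were not lowest on Rev-/- 1 were Psma7, Psmb3, Psmb4, Psmb10, Psmc6, Psmd1, Psmd4, Psmd5, Psmd7 and Psmd12. Of the 22 further probes of members above background, 14 were also lowest on that array and 18 lay below their own mean there. These probes read the same genes on the same arrays, and the share among further probes of all genes was not taken. The members are bright genes, and bright genes in general were more often lowest on Rev-/- 1, with 16.2% of the 3011 dimmest genes and 31.9% of the 3011 brightest. Among the 24 members in the brightest class 16 were lowest there. The same array scored higher than the others for some lists of markers of other cells, though single markers were high on all arrays. Hba-a1, for one, had 14.45 on Rev-/- 1 and 14.21 to 14.60 on the others. Rev-/- 1 was also the only array on which Xist did not exceed background. Bone and cartilage markers, 7 of 8 measured, had a score of 2.97 on Rev-/- 1 and −0.91 to −0.45 on the other 5 arrays, and summed intensities of 1030 to 20600 on the Rev-/- arrays and 1530 to 3210 on the WT arrays. Mmp13, a collagenase of bone and cartilage and the gene of that list with the largest log2 fold change, had 12.46 on Rev-/- 1 and 6.86 to 7.69 on the others. The contrast was smaller in Col2a1, with 12.39 on Rev-/- 1 and 8.50 to 11.27 on the others, and in Acan, with 8.47 against 6.98 to 7.52. Red cell markers, all 3 of them measured, scored 1.08 on Rev-/- 1 and −0.76 to −0.011 on the others, with summed intensities of 23600 to 33700 on the Rev-/- arrays and 20100 to 25900 on the WT arrays. Myoblast markers, 5 of 7 measured, scored −0.19 on Rev-/- 1 and −0.028 to 0.17 on the others. Markers of differentiated muscle, all 6 measured, were not lowest there, with −0.012 on Rev-/- 1 and −0.072 to 0.044 on the others. The endothelial list scored 0.16 on Rev-/- 1 and −0.089 to 0.060 on the others. Interferon-induced genes scored 0.13 on Rev-/- 1 and −0.14 to 0.093 on the others. The fibroblast list was not highest there, with 0.064 on Rev-/- 1 and −0.10 to 0.068 on the others. The part of these in the members' low level was not tested.

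**Figure D4:**
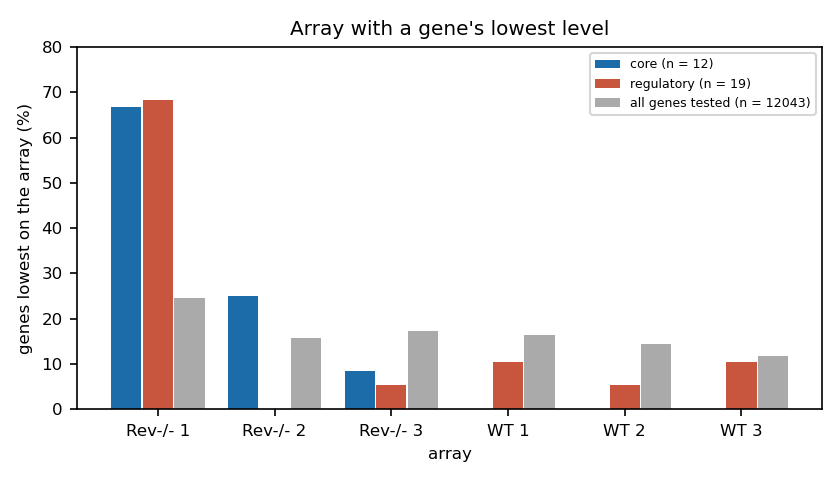
Share of genes (%) that had their lowest of 6 values on each array, for the 12 core genes, the 19 regulatory genes and all 12043 genes tested. Rev-/- 1 holds 66.7% of core and 68.4% of regulatory genes, and 24.6% of all genes.

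Without Rev-/- 1, 20 of the 31 members lay above 0 and 11 below, or 35.5% below, where 52.2% of all genes did. The median was 0.031 over the members and −0.0051 over all genes. At an unadjusted p of at most 0.05 with limma there were then 0 members, where 3.95% of all genes passed, and 0 genes of any kind were called. On the remaining arrays the scores of core and regulatory particle stayed within −0.033 to 0.072.

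**Figure D5:**
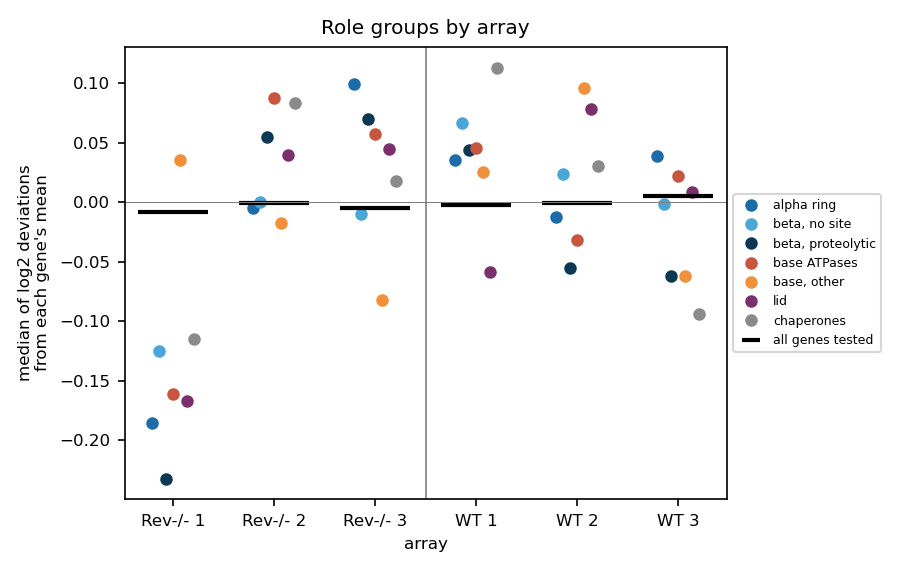
Score of each role group on each array, the median deviation of log2 intensity of its genes from their own means, with Rev-/- arrays left, WT arrays right, and black bars for all genes tested. On Rev-/- 1 the score is −0.23 to −0.12 in 6 groups and 0.035 in the base scaffold and receptor group.

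Genes that act with the proteasome were read from the same fit. Of the 4 activators on the array, which open the core in place of the regulatory particle, all 4 were measured, with log2 fold changes from 0.00051 to 0.15 and 0 at an unadjusted p of at most 0.05. Psme4 had 10.60, 10.41 and 10.30 on the Rev-/- arrays, against 10.14, 10.17 and 10.55 on the WT arrays (0.15, SE 0.13). Of 5 chaperones that assemble the core, 4 were measured, 2 on each side of 0, and again 0 passed. Psmg3 had 8.33, 8.28 and 8.19 on the Rev-/- arrays, against 8.31, 8.20 and 8.06 on the WT arrays (0.077, SE 0.081).

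Proteasome-associated proteins had 5 of 6 genes measured, of which 1 was lower at an unadjusted p of at most 0.05 (1.98% of all genes) and 0 were higher. Ecpas, an adaptor that binds the proteasome, had 8.56, 8.55 and 8.80 on the Rev-/- arrays, against 8.91, 8.81 and 8.80 on the WT arrays (−0.20, SE 0.085, limma unadjusted p = 0.0498, exact permutation p = 0.2, 2-sided). With the mean of its probes the log2 fold change was −0.052 (limma unadjusted p = 0.434). Genes for ubiquitin activation and for factors that deliver substrates had 7 of 8 measured, with 0 passing in either direction. Among them Ubqln1, a shuttle factor, had 10.01, 9.93 and 9.71 on the Rev-/- arrays, against 10.16, 9.99 and 10.19 on the WT arrays (−0.23, SE 0.097, limma unadjusted p = 0.0511), and −0.042 with the mean of its probes. Uba6, a ubiquitin-activating enzyme named after its values were seen, had 8.50, 8.58 and 8.70 on the Rev-/- arrays, against 8.47, 8.43 and 8.46 on the WT arrays. Its labels did not overlap, with the Rev-/- arrays higher as in 3.56% of all genes (0.14, SE 0.068, limma unadjusted p = 0.0797, exact permutation p = 0.1, 2-sided), and with array medians aligned the log2 fold change was −0.045.

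Regulators of proteasome gene transcription had all 3 genes measured, 1 lower at an unadjusted p of at most 0.05 (1.98% of all genes) and 0 higher. Nfe2l2, the antioxidant response factor related to Nfe2l1, had 7.21, 7.10 and 7.10 on the Rev-/- arrays, against 7.31, 7.31 and 7.27 on the WT arrays. The labels did not overlap, with the Rev-/- arrays lower as in 4.65% of all genes (−0.16, SE 0.059, limma unadjusted p = 0.0279, adjusted p = 0.997, exact permutation p = 0.1, 2-sided). The other 2 genes, named after their values were seen, had log2 fold changes above 0 that did not pass, 0.13 (SE 0.10) for Nfe2l1, which was −0.15 with array medians aligned, and 0.088 (SE 0.076) for Ngly1, the enzyme that processes Nfe2l1. Ngly1 was dim, at 6.58 to 6.81 and above background on 4 arrays only. Across these 5 lists 0 genes were called with limma.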

How the data were processed

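RNA of 6 samples, given by the study as primary myoblasts, was measured on Illumina mouse arrays, 3 labelled Rev-/- and 3 labelled WT. Per the methods of the study, the authors extracted the data with BeadStudio, background-subtracted and quantile-normalized them with lumi and tested them with limma. The processing notes of the submitters list GenomeStudio, lumi and limma without versions. The values the authors deposited are intensities on a linear scale for 45281 probes, with array medians of 98.4 to 107 and distributions that differ between arrays. A second table holds 12 columns named by array position only, which were not used.

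After log2 transformation the intensities were quantile-normalized (limma 3.58.1, R 4.3.3). A background limit was set per array from the dimmest probes, as the 95th percentile of their density mirrored at its peak, and 22403 probes exceeded it on 3 or more arrays. Of these, 18880 carry 1 gene symbol and stand for 12043 genes, each by its brightest probe. Between 21300 and 23266 probes per array exceeded the limit, and precision is limited by the 3 arrays per label. The model had the label as its only term (lmFit, eBayes), and p-values were adjusted over the 18880 probes by the Benjamini-Hochberg method. An exact permutation test over arrays, 2-sided, was run for single genes. The samples are called independent in the methods, with no statement on separate animals, so p-values measure the spread between these samples. Arrays of the same label differed in Xist or Eif2s3y, so they were not repeats of 1 RNA sample. How far the spread is one between animals is not known.

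Members and lists were chosen with earlier results of these data known. Values were given for the proteolytic subunits, for up to 3 members of smallest p in each role group, for members whose labels did not overlap, and for genes of each pathway list at an unadjusted p of at most 0.05 or else that of smallest p. Uba6, Nfe2l1 and Ngly1 were added outside this rule. Fold changes of members outside it were printed as ranges only. Replicate numbers in the titles recur in both groups, but same-numbered arrays had deviations correlated at −0.165, 0.117 and 0.0516, so the numbers were not taken to pair them. Alternatives were other normalizations, background correction with normexp at an offset of 16, other filters, array weights, a trended robust prior, a block for the replicate number, averaged probes per gene and leaving out each array.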

Additional observations from a re-analysis of the deposited data

How the results depend on the processing

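With 0 genes and 0 members called under every alternative run, what changed were counts, medians and signs. The members lower at an unadjusted p of at most 0.05 numbered 2, and 14 with array medians aligned, 17 with no normalization (18.8% and 22.7% of all genes), 1 with array weights, 1 with the mean of a gene's probes, and 0 to 2 when each array was left out in turn (0 without Rev-/- 1, Rev-/- 3 or WT 3). Members below 0 numbered 20, and 11 to 23 when each array was left out, 11 being without Rev-/- 1. With all arrays kept, they numbered 14 with array weights, where the median was 0.0122 for the members and 0.0151 for the regulatory particle, and 24 with the mean of a gene's probes. The median log2 fold change was −0.26 with array medians aligned and −0.306 with no normalization for the members, −0.292 and −0.338 for the core, −0.233 and −0.28 for the regulatory particle, and −0.1 and −0.147 for all genes, so that the members stood −0.16 and −0.159 from all genes. For all genes it was also 0.00225 with cyclic loess and −0.00867 with normexp. The cause of these moves was not tested. With the replicate block, 0 members were called, the members' median was −0.0248, and again 2 members were lower at an unadjusted p of at most 0.05, but these were Psmd2 (limma unadjusted p = 0.0495) and Psmd13 (limma unadjusted p = 0.0452), while Psmb1 (limma unadjusted p = 0.0644) and, outside the members, Ecpas (limma unadjusted p = 0.074) no longer passed.

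Signs of single genes turned as follows, and Ecpas had an unadjusted p of 0.0988 with array weights. With array medians aligned and with no normalization, the log2 fold change was −0.121 and −0.168 for Psmb5, −0.134 and −0.181 for Psmb10, −0.172 and −0.219 for Psmd1, −0.0781 and −0.125 for Psmd5, −0.185 and −0.232 for Psmd7, −0.103 and −0.15 for Psme4, −0.0931 and −0.14 for Psmg3, −0.045 and −0.0918 for Uba6, and −0.146 and −0.193 for Nfe2l1. Array weights gave 0.00179 for Psma5, 0.0311 for Psmb6 and 0.0152 for Psmd10. The mean of a gene's probes gave −0.0811 for Psmd1 and −0.0106 for Psmd7, and cyclic loess gave 0.0272 for Psmd4. With an array left out, the values ran from −0.114 to 0.0252 for Psma2, −0.168 to 0.0851 for Psma5, −0.0584 to 0.028 for Psmb4, −0.252 to 0.351 for Psmb5, −0.104 to 0.088 for Psmb6, −0.168 to 0.0493 for Psmb7, −0.0343 to 0.0458 for Psmd4, −0.0442 to 0.0598 for Psmd5 and −0.145 to 0.0775 for Psmd10.

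Over all alternatives 10 of the 31 members kept their sign and 21 did not, with 68 sign changes among 495 values. Of the 22 further probes of 17 members, 10 had the sign of the probe used (45.5%), where 59.5% did among all genes. In an alternative added after seeing the data, the count of members lowest on Rev-/- 1 was 15 to 22 and the count below their mean there 26 to 29 under the other normalizations, filters and probe choices. Dim signal limits Psmc6, Psmd2 and Ngly1. With 3 arrays per label, differences inside the intervals given, and larger ones, can go uncalled. The interval of Psmd2 lay wholly on 1 side, from −0.295 to −0.022, and its adjusted p with limma was 0.997.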
